A study of Arabidopsis thaliana with 6 samples.

Results

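The 44 genes described here are nuclear genes whose proteins carry out the light reactions and the first step of carbon fixation, chosen by locus from the 32678 genes in the files. They are 14 *LHCB* genes of the photosystem II antenna, 4 *LHCA* genes of the photosystem I antenna, 12 *PSA* subunits of photosystem I, 9 *PSB* subunits of photosystem II, and 5 genes for the small subunit of Rubisco (*RBCS*) and for Rubisco activase (*RCA*). The rule that picks them names loci and uses no measured value, but it was set with earlier results of these data known. All 44 had enough counts to be tested.

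Light is gathered by chlorophyll a/b-binding proteins, the antenna, which pass its energy to the reaction centres of the photosystems. The antenna proteins and many photosystem subunits are made in the cytosol from nuclear genes, imported into plastids and built into complexes together with chlorophyll and with proteins made inside the plastid. In flowers the sepals, young carpels and anthers are green for a time, and transcription of the nuclear genes is known to follow light, the circadian clock and signals sent by the plastid.

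The study sequenced RNA of *Arabidopsis thaliana* inflorescence apices that carried flowers up to stage 12. The wild type was Columbia-0, and *bpcV*, a quintuple mutant in the same ecotype, combines *bpc1-2* with mutant alleles of *BPC2*, *BPC3*, *BPC4* and *BPC6*, that is, of BASIC PENTACYSTEINE transcription factors of class I and class II. BPC proteins bind GA-rich DNA. There were 3 biological replicates of each genotype, from untreated plants grown with 16 h of light and 8 h of dark at 20 to 22 °C. The question asked of these libraries was which genes change when the BPC factors are missing.

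Totals ranged from 16196042 to 21455150 expected counts per library, and the first principal component, with 56.3% of the variance, separated the genotypes. The mutated genes *BPC1*, *BPC2* and *BPC6* were down-regulated, with log2 fold changes of -5.25, -4.43 and -4.48, as was *BPC4* (-0.62), whereas *BPC3*, at 4.72 CPM or less in every library, had 0.38 with an adjusted p of 0.292 in edgeR's quasi-likelihood test. All 8 meristem and floral organ markers were present in every library, with a summed level of 876 to 887 TPM in wild type and 873 to 1076 TPM in *bpcV*. Among them *AP1*, *AP3* and *AG* had every *bpcV* library higher, and the others overlapped. Their log2 fold changes were 0.48 for *AP1*, 0.31 for *AP3* and 0.18 for *AG* (edgeR FDR 0.0154, 0.0868 and 0.171). Late pollen markers reached 951 to 1029 TPM and 712 to 1054 TPM, which is high for tissue labelled as holding flowers up to stage 12, and seed storage markers stayed at or under 0.41 TPM. The pollen marker *PPME1* had every *bpcV* library lower (log2 fold change -0.42, edgeR FDR 0.0594), while *VGD1* and *PTEN1* overlapped. The 4 tapetum markers, of the anther, summed to 60.04 to 135 TPM in wild type and 37.95 to 77.2 TPM in *bpcV*. The sums overlapped, but *AMS* had every *bpcV* library lower (log2 fold change -1.24, edgeR FDR 0.0358), and *A9* and *MS1* had -0.49 and -0.66 with overlap. Guard cell markers, which mark a green cell type, summed to 36.03 to 38.24 TPM in wild type and 38.6 to 43.8 TPM in *bpcV*. The part of floral organs, tapetum, pollen and guard cells in the results was not tested. In bulk tissue, fewer cells of a type and less RNA per cell cannot be told apart.

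Levels are given as CPM, counts brought to 1 common library total with TMM factors, which compare a gene between libraries, and as TPM, which also divides by gene length and so compares genes within a library. The genes were abundant. Together they held 4.863, 5.011 and 4.700% of all TPM in wild type 1, 2 and 3, and 4.296, 3.507 and 4.111% in *bpcV* 1, 2 and 3, so the genotypes did not overlap. In wild type the highest level was that of *LHCB1.3* (6124 ± 144 TPM, SD, n = 3), followed by *RBCS1A* (5533 ± 149 TPM) and *RBCS3B* (3413 ± 221 TPM), and the lowest was that of *LHCB1.4* (40.0 ± 2.33 TPM). In *bpcV* the first place went to *RBCS1A* (5423 ± 999 TPM), *LHCB1.3* (3825 ± 453 TPM) came after it, and their SDs did not meet. *LHCB1.1* moved from place 12 of 44 to place 38, and *LHCB1.2* from place 15 to place 35.

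A gene was called a DEG when edgeR's quasi-likelihood test, adjusted over all 20813 genes tested, gave an FDR of 0.01 or less, which called 2.23% of all genes down-regulated in *bpcV* and 1.66% up-regulated. Of the 44 photosynthesis genes 7 were called down-regulated (15.9%) and 0 up-regulated, against 3.89% of all genes in both directions together. At an FDR of 0.05 or less there were 11 lower and 1 higher (6.35% and 5.69% of all genes), and at an unadjusted p under 0.05 there were 18 lower and 2 higher (13.8% and 14.4% of all genes). The 7 were *LHCB1.1*, *LHCB1.2*, *LHCB1.5*, *LHCB2.1*, *LHCB2.2*, *LHCA1* and *LHCA4*, all of them antenna genes. For 21 of the 44 every *bpcV* library lay below every wild type library, against 17.6% of all genes, and for 2 every *bpcV* library lay above, against 18.2%. The median log2 fold change over the 44 genes was -0.24 and that over all genes tested was 0.01.

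Of the 18 antenna genes 7 were called (38.9%), and 17 had all *bpcV* libraries below all wild type libraries (94.4%), with a median log2 fold change of -0.50. Among the other 26 genes 0 were called, 4 had no overlap in that direction (15.4%), and the median was -0.09. DESeq2 called 12 of the 44 genes and edgeR's likelihood ratio test 11. Of all 20813 genes tested these 2 settings called 1814 and 2233, against 809 in the main fit. The count also depended on the libraries used, and was 3 without wild type 1, without wild type 2 or without wild type 3, 11 without *bpcV* 1, 6 without *bpcV* 2 and 4 without *bpcV* 3. The count over all genes moved in the same directions. It was 172, 167 and 204 without wild type 1, 2 and 3, and 1249, 649 and 256 without *bpcV* 1, 2 and 3. *LHCB1.1*, *LHCB1.2* and *LHCA1* were called in each of these 6 fits and in all 12 other settings tried, whereas the adjusted p of *LHCB1.5*, *LHCB2.1*, *LHCB2.2* and *LHCA4* rose to at most 0.0343 in some of them with no change of sign.

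**Figure D1:**
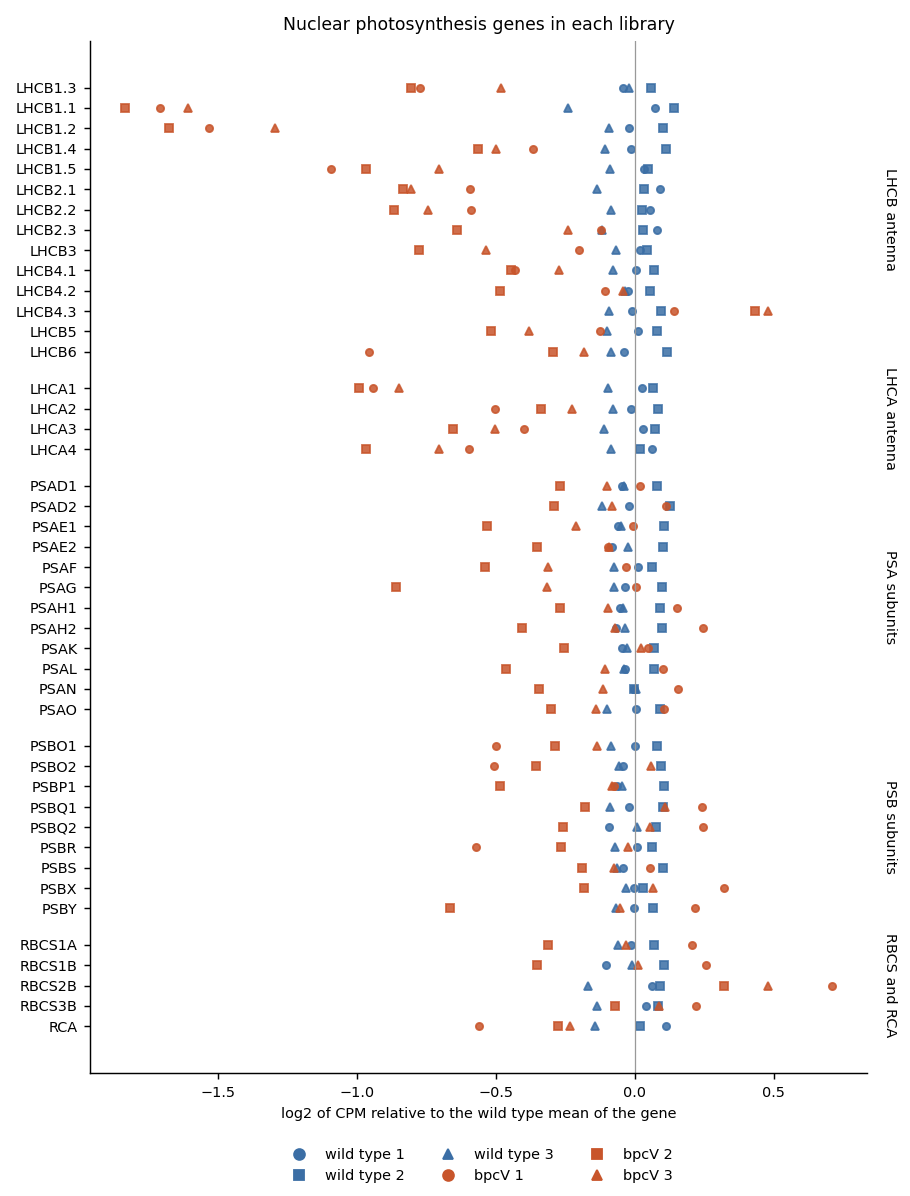
Each of the 44 genes is a row, and each point is 1 library, plotted as log2 CPM relative to the mean of the 3 wild type libraries (blue, wild type; orange, *bpcV*; circle, square and triangle, replicates 1, 2 and 3). The *bpcV* points of 17 of the 18 antenna genes lie left of all wild type points, while most *PSA*, *PSB* and *RBCS* rows overlap.

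*LHCB1* encodes the main protein of LHCII, the trimeric antenna that surrounds photosystem II, and Arabidopsis has 5 copies of the gene. *LHCB1.1* (AT1G29920, also *CAB2*) lies on chromosome 1 at 10474656 to 10475969 of TAIR10.1, on the minus strand, with *LHCB1.2* (AT1G29910, *CAB3*; 10472280 to 10473502) next to it on the same strand. *LHCB1.3* (AT1G29930, *CAB1*) starts 1916 bases from the start of *LHCB1.1* and is read in the other direction. *LHCB1.5* (AT2G34420; chromosome 2, 14522524 to 14523568, minus strand) and *LHCB1.4* (AT2G34430) likewise start 1039 bases apart and point away from each other. All 5 copies have 1 coding exon.

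*LHCB1.1* had 988, 1037 and 796 CPM in wild type 1, 2 and 3 and 288, 264 and 309 CPM in *bpcV* 1, 2 and 3, respectively. Even the lowest wild type library stood far above the highest *bpcV* library. It fell by 1.71 on the log2 scale (95% interval -2.001 to -1.425), which is 3.28-fold lower, with an FDR of 0.000311 in edgeR's quasi-likelihood test, the largest fall of the 44 genes. *LHCB1.2* had 737, 803 and 702 CPM in wild type and 258, 234 and 304 CPM in *bpcV*. Again no library overlapped, and the fall was 1.49 on the log2 scale (-1.77 to -1.22), 2.81-fold, with an FDR of 0.000472 in the same test. *LHCB1.5* had 1324, 1338 and 1217 CPM in wild type and 606, 662 and 795 CPM in *bpcV*, and fell by 0.91 (-1.19 to -0.63; FDR 0.00333 by edgeR).

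The other copies had lower values in *bpcV* without passing the threshold. *LHCB1.3*, the most abundant, had 4308, 4617 and 4375 CPM in wild type and 2596, 2539 and 3180 CPM in *bpcV*. The groups did not overlap, the log2 fold change was -0.68 (-0.97 to -0.39), and the FDR by edgeR was 0.0124, just above the threshold. It passed in 3 of 18 alternatives, among them DESeq2. *LHCB1.4*, the rarest copy, had 27.4, 29.9 and 25.7 CPM in wild type and 21.5, 18.7 and 19.6 CPM in *bpcV*. Its log2 fold change was -0.47 (edgeR FDR 0.0182, and 0.00672 without *bpcV* 1).

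The coding sequences of the 5 copies are 86.8 to 96.4% identical, so that some read pairs match more than 1 copy. RSEM divides such reads, and the expected counts of *LHCB1.1* and *LHCB1.2* were not whole, within 0.001, in any of the 6 libraries. Their separate values are therefore less certain than their sum. When the counts of the 5 copies were summed before the fit, *LHCB1* had 7385, 7825 and 7115 CPM in wild type and 3770, 3718 and 4608 CPM in *bpcV*. The sum does not depend on how reads were divided, and it fell by 0.88 on the log2 scale (-1.18 to -0.59; FDR 0.00505 by edgeR), one of 2 calls among the 9 families summed in this way. The shares of the copies differed as well. *LHCB1.1* and *LHCB1.2* together made up 22.1, 22.3 and 20.0% of *LHCB1* TPM in wild type and 13.8, 12.7 and 12.7% in *bpcV*, while *LHCB1.3* made up 60.5 ± 1.58% and 69.3 ± 0.384% (SD, n = 3). No library of 1 genotype fell within the range of the other for either share.

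**Figure D2:**
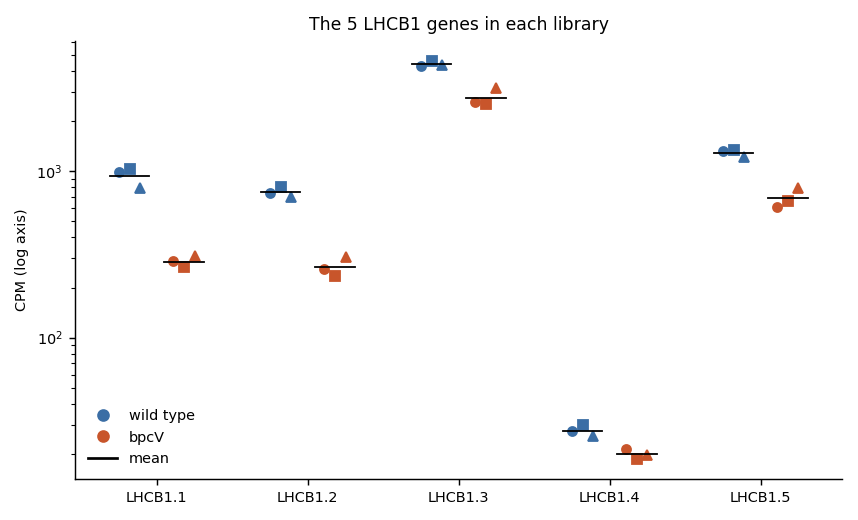
CPM of the 5 *LHCB1* copies on a log axis, with 1 point per library (blue, wild type; orange, *bpcV*) and a line at each mean. The *bpcV* points lie below the wild type points for every copy, with means of 940 and 287 CPM for *LHCB1.1* and 4434 and 2772 CPM for *LHCB1.3*.

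The stretches of 250 bases before the annotated starts of the 3 *LHCB1* copies called down-regulated are shown because these neighbouring or paired genes share most of their coding sequence. They were read 5′ to 3′ on the strand of the gene, the minus strand in each case, from the RefSeq assembly TAIR10.1: chr1:10475970-10476219 for *LHCB1.1*, chr1:10473503-10473752 for *LHCB1.2* and chr2:14523569-14523818 for *LHCB1.5*. Capitals mark every match, on either strand, to the motifs searched. These were the G-box CACGTG, the I-box GATAAG, the CCAATC element, the evening element AAATATCT of clock-controlled genes and the GA-rich repeat GAGAGA. The C-box, which the study names as the BPC binding motif, was not searched.
*LHCB1.1*: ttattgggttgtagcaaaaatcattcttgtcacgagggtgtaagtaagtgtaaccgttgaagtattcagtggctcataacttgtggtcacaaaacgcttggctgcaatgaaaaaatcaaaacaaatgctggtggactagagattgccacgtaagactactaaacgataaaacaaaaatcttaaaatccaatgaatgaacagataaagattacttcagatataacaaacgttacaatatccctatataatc
*LHCB1.2*: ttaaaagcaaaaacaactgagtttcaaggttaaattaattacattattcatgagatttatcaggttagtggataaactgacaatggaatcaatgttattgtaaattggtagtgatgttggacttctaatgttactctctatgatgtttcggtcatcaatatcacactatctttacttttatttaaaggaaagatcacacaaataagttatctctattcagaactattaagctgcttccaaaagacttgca
*LHCB1.5*: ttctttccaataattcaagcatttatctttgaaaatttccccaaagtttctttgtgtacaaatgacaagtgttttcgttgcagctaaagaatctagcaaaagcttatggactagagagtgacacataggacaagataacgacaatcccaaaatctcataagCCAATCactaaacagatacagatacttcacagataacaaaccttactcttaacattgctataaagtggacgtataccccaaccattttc
Over all 5 copies such windows are 43.9 to 55.4% identical from pair to pair, far less than the coding sequences. In the same alignment the windows of the *LHCA* genes, with coding sequences 49.4 to 57.3% identical, reach 43.6 to 48.2%. Values of this size are therefore no sign of shared sequence. *LHCB1.1* and *LHCB1.2*, with the largest falls, held none of the 5 motifs searched in this window, and *LHCB1.5* held CCAATC at 89 bases before its start. Other sites of clock factors were not searched, so their presence in these windows is not known from this search.

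*LHCB2* encodes an LHCII protein that is phosphorylated when energy is moved between the photosystems. *LHCB2.1* (AT2G05100; chromosome 2, 1822990 to 1824480, minus strand) had 443, 425 and 379 CPM in wild type and 276, 234 and 238 CPM in *bpcV*, and *LHCB2.2* (AT2G05070; 1799234 to 1800472, minus strand) had 285, 279 and 259 CPM against 183, 151 and 164 CPM. Neither gene had overlapping genotypes. They fell by 0.74 (-0.98 to -0.50) and 0.73 (-0.95 to -0.51) on the log2 scale, with an FDR of 0.0042 and 0.00334 by edgeR. The expected counts of both were not whole, within 0.001, in 5 libraries, so their separate values carry the same limit as those of *LHCB1.1* and *LHCB1.2*. The third copy, *LHCB2.3*, was the rarest, with 102, 98.3 and 88.9 CPM against 88.6, 61.8 and 81.5 CPM. Its wild type 3 and *bpcV* 1 values almost met, and its log2 fold change of -0.32 had an adjusted p of 0.167 in the edgeR test. The summed copies fell by 0.68 (-0.93 to -0.43; FDR 0.00687 by edgeR). Of the families *LHCB1* and *LHCB2*, the 2 called after summing, 0 were called without wild type 1, wild type 2, wild type 3 or *bpcV* 3, and 1 without *bpcV* 2.

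The windows upstream of the 2 copies called down-regulated are shown for the stretch near the start in which both hold CCAATC, read on the minus strand at chr2:1824481-1824730 and chr2:1800473-1800722 with capitals as before.
*LHCB2.1*: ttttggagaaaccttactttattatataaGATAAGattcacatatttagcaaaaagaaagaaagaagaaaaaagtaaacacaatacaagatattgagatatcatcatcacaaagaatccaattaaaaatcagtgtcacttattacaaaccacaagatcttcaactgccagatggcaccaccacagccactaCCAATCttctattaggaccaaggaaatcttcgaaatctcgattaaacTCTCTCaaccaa
*LHCB2.2*: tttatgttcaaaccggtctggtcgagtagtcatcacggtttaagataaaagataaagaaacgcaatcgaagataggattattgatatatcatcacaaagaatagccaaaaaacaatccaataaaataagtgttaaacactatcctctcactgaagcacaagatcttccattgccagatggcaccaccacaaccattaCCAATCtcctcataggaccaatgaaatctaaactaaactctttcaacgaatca
The element starts 59 bases before *LHCB2.1* and 53 bases before *LHCB2.2*. It is also present 54 bases before *LHCB2.3*, which was not called.

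*LHCB3* encodes the remaining LHCII protein. It had 575, 585 and 541 CPM in wild type and 493, 331 and 391 CPM in *bpcV*, with *bpcV* 1 nearest to wild type. The log2 fold change was -0.49 (-0.81 to -0.16) with an edgeR FDR of 0.063, and without *bpcV* 1 it was -0.65 with an FDR of 0.0031.

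The minor antenna proteins CP29, CP26 and CP24 sit singly between LHCII and the photosystem II core. *LHCB4.1*, the main CP29 gene, had 741, 774 and 699 CPM in wild type and 547, 543 and 612 CPM in *bpcV* (log2 fold change -0.38, edgeR FDR 0.0368). *LHCB4.2* was closer to wild type, with 326, 344 and 324 CPM against 308, 237 and 322 CPM (-0.20, FDR 0.336 by edgeR). *LHCB5*, for CP26, had 1240, 1301 and 1148 CPM against 1127, 859 and 946 CPM (-0.33, FDR 0.122 by edgeR). None of these genes overlapped between genotypes, but for *LHCB4.2* wild type 3 and *bpcV* 3 nearly met.

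*LHCB6*, for CP24, had 570, 635 and 553 CPM in wild type and 302, 478 and 516 CPM in *bpcV*. The *bpcV* 1 library was the low one here, and the wide spread left an interval of -0.86 to -0.01 around the log2 fold change of -0.44 (edgeR FDR 0.165). *LHCB4.3*, which encodes a shorter CP29 form also called LHCB8, was the only one of the 18 antenna genes with higher values in *bpcV*. It had 102, 110 and 96.3 CPM in wild type and 113, 139 and 143 CPM in *bpcV*. All *bpcV* libraries lay above wild type, the log2 fold change was 0.36 (0.11 to 0.61), and the edgeR FDR was 0.0704, or 0.00548 without *bpcV* 1. Its share of the *LHCB4* TPM was 9.53 ± 0.156% in wild type and 14.4 ± 1.76% in *bpcV* (SD, n = 3), without overlap. The summed *LHCB4* counts had a log2 fold change of -0.25 with an edgeR FDR of 0.155.

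The 4 *LHCA* proteins form a belt on 1 side of photosystem I, where LHCA1 pairs with LHCA4 and LHCA2 with LHCA3. *LHCA1* (AT3G54890; chromosome 3, 20339504 to 20341176, minus strand) had 658, 676 and 604 CPM in wild type and 337, 325 and 359 CPM in *bpcV*. It fell by 0.93 on the log2 scale (-1.13 to -0.72), 1.90-fold, with an FDR of 0.00111 by edgeR. Its *bpcV* libraries lay close together (SD 17.6 CPM). *LHCA4* (AT3G47470; chromosome 3, 17493343 to 17495033, minus strand) had 1122, 1089 and 1014 CPM against 712, 550 and 660 CPM. It fell by 0.75 (-1.02 to -0.48), 1.68-fold, with an FDR of 0.00632 by edgeR. The genes of the other pair did not pass the threshold. *LHCA3* had 715, 737 and 648 CPM against 531, 445 and 494 CPM (-0.51, edgeR FDR 0.0167, and 0.0051 without *bpcV* 1), and *LHCA2* had 643, 687 and 615 CPM against 457, 514 and 555 CPM (-0.35, edgeR FDR 0.0636). All 4 genes had every *bpcV* library below every wild type library.

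The *LHCA* coding sequences are 49.4 to 57.3% identical, and their expected counts were whole, within 0.001, in all libraries. The windows upstream of the called pair are shown for the CCAATC they share, read on the minus strand at chr3:20341177-20341356 and chr3:17495034-17495283. That of *LHCA1* has 180 bases because the next annotated gene begins beyond them.
*LHCA1*: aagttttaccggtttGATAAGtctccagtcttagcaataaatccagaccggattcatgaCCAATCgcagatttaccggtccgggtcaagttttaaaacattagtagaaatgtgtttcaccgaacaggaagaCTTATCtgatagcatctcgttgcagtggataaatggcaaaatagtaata
*LHCA4*: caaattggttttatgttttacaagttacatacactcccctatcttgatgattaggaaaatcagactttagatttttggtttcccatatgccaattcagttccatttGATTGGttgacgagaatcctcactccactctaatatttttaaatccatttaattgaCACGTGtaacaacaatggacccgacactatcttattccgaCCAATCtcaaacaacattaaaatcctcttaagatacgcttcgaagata
*LHCA1* held CCAATC at 121 bases and the I-box at 165 and 49 bases before its start, and *LHCA4* held CCAATC at 144 and 48 bases and the G-box at 88 bases. *LHCA3*, which was not called, held CCAATC as well, at 35 bases before its start, and *LHCA2* held none of the motifs searched.

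In the 250 bases before each annotated start, counted whether or not they reach into a neighbouring gene, CCAATC on either strand was present in 10 of the 18 antenna genes (55.6%) and in 2 of the other 26 (7.69%), against 10.2% of the 26711 protein-coding genes of TAIR10.1. It was in 5 of the 7 genes called, which are all antenna genes, and in none of the 12 *PSA* genes. Antenna genes that were not called held it as well, namely *LHCB1.3*, *LHCB2.3*, *LHCB4.1*, *LHCB4.2* and *LHCA3*. The G-box was in 9 of 44 windows (20.5%, against 6.58% of all), spread over all 5 groups, and the I-box in 11 (25.0%, against 12.2%). GAGAGA was found in 9 windows (20.5%, against 20.4% of all genes), of which 2 were those of antenna genes, and the evening element in 0 (against 4.84%). A match is a description of the letters and not evidence of binding. The C-box was not searched, and the study looked for BPC binding peaks in a wider window. The GAGAGA share therefore gives no count of BPC sites.

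**Figure D3:**
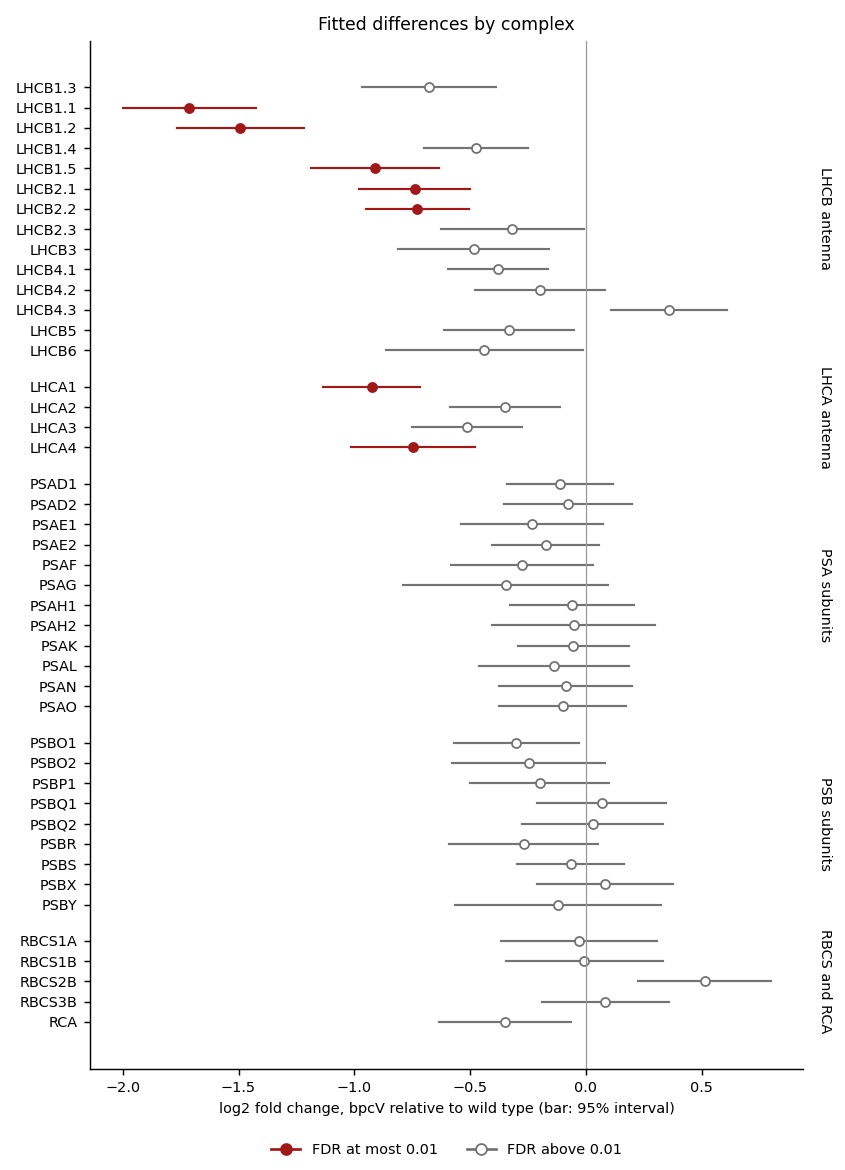
Fitted log2 fold change of *bpcV* relative to wild type for each gene, with its 95% interval (red and filled, FDR of 0.01 or less; grey and open, above 0.01). Filled points appear among *LHCB* and *LHCA* genes, from -1.71 for *LHCB1.1* to -0.73 for *LHCB2.2*, and the *PSA* intervals all include 0.

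None of the 12 *PSA* genes of photosystem I was called, 0 had an unadjusted p under 0.05 in edgeR's test, and 11 of 12 overlapped between genotypes. Their fitted log2 fold changes lay between -0.35 and -0.05, all on the lower side under every scaling tried, with a median of -0.11 that became -0.002 without *bpcV* 2. Without that library *PSAD2*, *PSAH1*, *PSAH2*, *PSAK*, *PSAL* and *PSAN* had values above 0. *bpcV* 2 was the lowest *bpcV* library for 36 of the 44 genes and *bpcV* 1 the highest for 29.

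Among the subunits that dock ferredoxin on the stromal side, *PSAD1* had 436, 475 and 438 CPM in wild type and 455, 374 and 419 CPM in *bpcV* (-0.11), and *PSAD2* had 219, 243 and 205 CPM against 241, 182 and 210 CPM (-0.08). *PSAE1* had 297, 333 and 299 CPM against 308, 214 and 268 CPM (-0.23). *PSAE2* was the 1 *PSA* gene without overlap, by a narrow gap, with 161, 182 and 167 CPM against 159, 133 and 159 CPM (-0.17, edgeR FDR 0.305).

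*PSAF*, whose protein receives plastocyanin, had 799, 827 and 752 CPM against 776, 546 and 639 CPM (-0.28, edgeR FDR 0.219). *PSAG*, a peripheral subunit near the antenna belt, had the widest interval of the group, -0.79 to 0.09 around -0.35. Its *bpcV* values were 530, 291.4 and 425 CPM against 516, 566 and 502 CPM in wild type, so that *bpcV* 1 lay inside the wild type range and the other two below it. *PSAK*, on the other edge of the complex, had 410, 443 and 415 CPM against 437, 354 and 430 CPM (-0.05).

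For the subunits at which LHCII can attach to photosystem I, the log2 fold change was -0.06 for *PSAH1*, -0.05 for *PSAH2*, -0.14 for *PSAL* and -0.10 for *PSAO*, with *bpcV* 1 above wild type in all 4. *PSAL*, for example, had 636, 684 and 635 CPM in wild type and 700, 473 and 605 CPM in *bpcV*. *PSAN*, a subunit on the lumenal side, was the most even gene in wild type, at 345, 345 and 347 CPM, and ranged from 273 to 385 CPM in *bpcV* (-0.09).

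Of the 9 *PSB* genes of photosystem II 0 were called, 6 had a log2 fold change below 0 and 3 above, with a median of -0.12 that became -0.0040 without *bpcV* 2. *PSBO1*, the main gene of the protein that shields the manganese cluster of water oxidation, had 1279, 1351 and 1204 CPM in wild type and 905, 1047 and 1163 CPM in *bpcV*. It did not overlap, and its log2 fold change was -0.30 (-0.57 to -0.03; edgeR FDR 0.14). *PSBO2* had 271, 298 and 268 CPM against 196, 218 and 290 CPM (-0.25), with *bpcV* 3 inside the wild type range, and the summed pair had -0.29 (edgeR FDR 0.167).

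*PSBP1*, another extrinsic subunit of the oxygen-evolving complex, had 873, 982 and 885 CPM against 868, 653 and 864 CPM (-0.20), with wild type 1 and *bpcV* 1 nearly level. *PSBQ1* and *PSBQ2*, which complete that complex, had log2 fold changes of 0.07 and 0.03, and those of *PSBQ1* and *PSBQ2* without *bpcV* 1 were -0.03 and -0.10. *PSBR*, the most abundant *PSB* gene at 2286 ± 68.5 TPM in wild type, had 1005, 1044 and 951 CPM against 674, 832 and 982 CPM (-0.27, edgeR FDR 0.253). Its *bpcV* 3 library lay within wild type.

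*PSBS*, the sensor that lets the antenna shed excess light energy as heat, had 553, 610 and 545 CPM against 592, 499 and 541 CPM (-0.07; 95% interval -0.30 to 0.17). The small membrane subunits *PSBX* and *PSBY* had log2 fold changes of 0.08 and -0.12, and *PSBY* spread from 220 to 406 CPM over the *bpcV* libraries while wild type stayed between 334 and 365 CPM. For *PSBX* the *bpcV* libraries ranged from 330 to 468 CPM, on both sides of the wild type libraries.

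Rubisco small subunit genes are among the most abundant transcripts of green tissue. *RBCS1A* had 3875, 4107 and 3758 CPM in wild type and 4515, 3155 and 3830 CPM in *bpcV* (-0.03; -0.37 to 0.31), and *RBCS3B* had 2357, 2431 and 2084 CPM against 2670, 2182 and 2433 CPM (0.08; -0.19 to 0.36). *RBCS1B* had a log2 fold change of -0.01, or 0.01 with library totals in place of TMM factors. These 3 genes overlapped between genotypes.

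*RBCS2B* had higher values in *bpcV* but was not called. It had 433, 441 and 369 CPM in wild type and 678, 518 and 578 CPM in *bpcV*, without overlap, and its log2 fold change was 0.51 (0.23 to 0.80) with an edgeR FDR of 0.0337. DESeq2 and the likelihood ratio test called it. Its share of *RBCS* TPM was 7.59, 7.37 and 6.93% in wild type and 9.98, 10.3 and 9.80% in *bpcV*. *RBCS1B*, *RBCS2B* and *RBCS3B* lie side by side on chromosome 5 between 15376988 and 15385320, and the 4 *RBCS* coding sequences are 87.7 to 97.3% identical. Their expected counts, except those of *RBCS1A*, were not whole in 5 or 6 libraries, since RSEM divided reads between them. The summed *RBCS* counts had a log2 fold change of 0.05 (-0.28 to 0.37). *RCA*, which frees Rubisco of bound sugar phosphates, had 1910, 1790 and 1602 CPM against 1199, 1462 and 1503 CPM. It did not overlap, and its log2 fold change was -0.35 (-0.63 to -0.06; edgeR FDR 0.111).

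Summed by complex, the *LHCB* genes had 15403, 15839 and 14902 TPM in wild type and 9435, 8756 and 10327 TPM in *bpcV*, where the mean was 38.2% lower. For the *LHCA* genes the sums were 3726, 3713 and 3474 TPM against 2438, 2192 and 2436 TPM, 35.3% lower. The *PSA* sums overlapped (9380 to 9922 TPM against 7104 to 10040 TPM), as did those of *RBCS* and *RCA* (10781 to 11680 TPM against 9972 to 13030 TPM). The *PSB* sums did not, with 8458 to 8959 TPM against 7045 to 8414 TPM.

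Within each library, the ratio of *LHCB* to *PSB* TPM was 1.80, 1.77 and 1.76 in wild type and 1.18, 1.24 and 1.23 in *bpcV*. The ratio of *LHCA* to *PSA* TPM was 0.396, 0.374 and 0.370 in wild type and 0.243, 0.309 and 0.286 in *bpcV*. Such ratios within a library do not depend on its total, and for both ratios every *bpcV* library lay below every wild type library. With 3 libraries in each genotype an exact permutation test cannot give a two-sided p under 0.1, and no test of these sums was made.

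**Figure D4:**
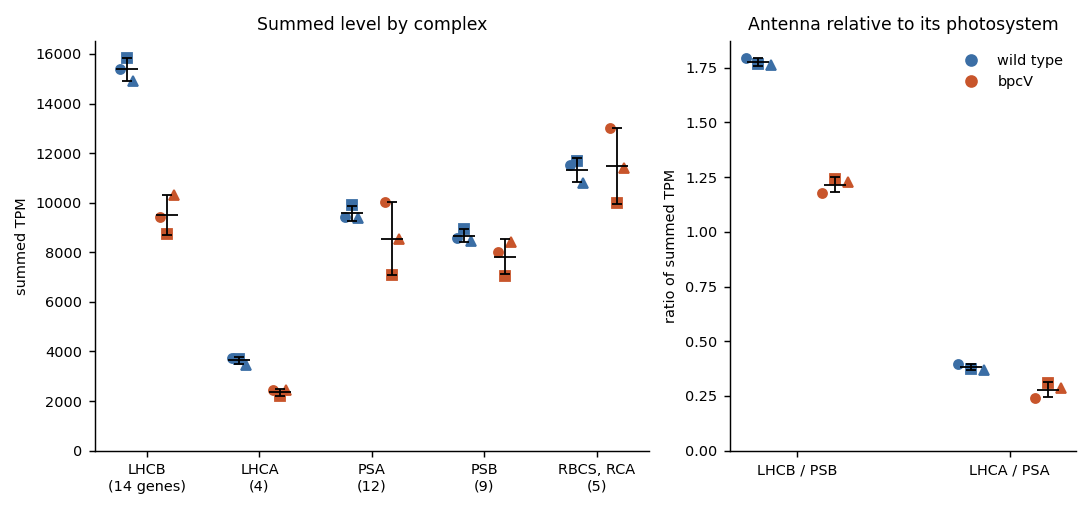
Left, summed TPM of each gene group per library, and right, the ratio of antenna to photosystem TPM per library (blue, wild type; orange, *bpcV*; circle, square and triangle, replicates 1, 2 and 3; bars, mean ± SD, n = 3). The *LHCB* sum drops from 15381 to 9506 TPM and the *LHCB* to *PSB* ratio from 1.77 to 1.22, whereas the *PSA* and Rubisco groups overlap.

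The other genes of the pathway were read from lists of 106 genes in 8 groups. Of them 5 were called down-regulated (4.72%, against 2.23% of all genes) and 0 up-regulated (against 1.66%). At an unadjusted p under 0.05 there were 19 lower and 7 higher, against 13.8% and 14.4% of all genes. The 13 genes of electron transport and ATP synthase (median log2 fold change -0.05), 10 other photosystem and antenna genes (-0.06), 19 Calvin cycle genes (-0.03), 9 photorespiration genes (0.06) and 7 genes for antenna insertion and regulation (-0.02) had 0 called in edgeR's test. The 7 plastid-encoded genes had a median of 0.50, with overlap between genotypes for each, in libraries selected for poly-A tails that plastid transcripts mostly lack.

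Of the 16 chlorophyll synthesis genes 1 was called. *PORA*, one of the light-dependent protochlorophyllide oxidoreductases, had 29.1, 38.8 and 24.7 CPM in wild type and 4.82, 4.87 and 5.08 CPM in *bpcV*, and fell by 2.64 on the log2 scale (-3.05 to -2.24; FDR 0.000212 by edgeR). That fall exceeded those of the 44 photosynthesis genes and was called in all 18 alternatives. The other chlorophyll genes were not called, and the median of the list was -0.18.

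In the list of 25 regulators of photosynthesis genes, 4 were called (16%, against 2.23% of all genes) and all were lower, 0 were called higher (against 1.66%), and the median log2 fold change was -0.28. *PIF4* and *PIF5*, bHLH factors that bind the light-activated phytochromes, had 17.8 to 21.8 CPM and 17.4 to 19.1 CPM in wild type against 7.91 to 9.65 CPM and 9.35 to 11.5 CPM in *bpcV*. They fell by 1.17 and 0.85 on the log2 scale (edgeR FDR 0.00127 and 0.00322). *CCA1*, a clock factor of the MYB family that binds antenna gene promoters, had 84.9 to 97.5 CPM against 45.4 to 56.3 CPM and fell by 0.81 (edgeR FDR 0.00301). *GUN1*, a plastid protein of the signal from plastid to nucleus, had 206 to 216 CPM against 128 to 143 CPM and fell by 0.65 (edgeR FDR 0.00288).

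The calls on these regulators were less stable than that of *PORA*. The count of pathway genes called was 5 with all libraries, 1 without wild type 1 or without wild type 2, 2 without wild type 3, 6 without *bpcV* 1 and 4 without *bpcV* 3. Over all genes the counts in these fits were 809, 172, 167, 204, 1249 and 256, in that order. *PIF4* kept its call in 16 of 18 alternatives, *GUN1* in 14, and *PIF5* and *CCA1* in 13. *LHY*, the closest relative of *CCA1*, *TOC1*, a clock gene of the evening, and *RVE8*, another clock gene of the list, were chosen after their values were seen. Their log2 fold changes were -0.23, 0.07 and -0.49 (edgeR FDR 0.201, 0.656 and 0.0777). For *RVE8* every *bpcV* library lay below every wild type library. The part of these regulators in the antenna values was not tested, and the hour of harvest is not given in the sources used here.

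The 6 activators of green tissue genes that were to be named whatever their result were not called. *GLK1* had 23.00, 23.65 and 24.17 CPM in wild type and 26.58, 26.05 and 36.04 CPM in *bpcV* (0.33, edgeR FDR 0.151), while its partner *GLK2*, with which it activates antenna and chlorophyll genes, had 27.2, 27.0 and 25.5 CPM against 15.1, 23.2 and 25.0 CPM (-0.33, edgeR FDR 0.25). The GATA factors *GNC* and *CGA1* had log2 fold changes of -0.32 and -0.41, with *CGA1* under 1 CPM in every library. The bZIP factors of light signalling, *HY5* and *HYH*, had 0.34 and -0.43. *HY5* stood at 7.49 CPM in *bpcV* 1 and at 14.1 and 14.8 CPM in the other *bpcV* libraries, and without *bpcV* 1 its log2 fold change was 0.58 with an edgeR FDR of 0.00833.

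**Figure D5:**
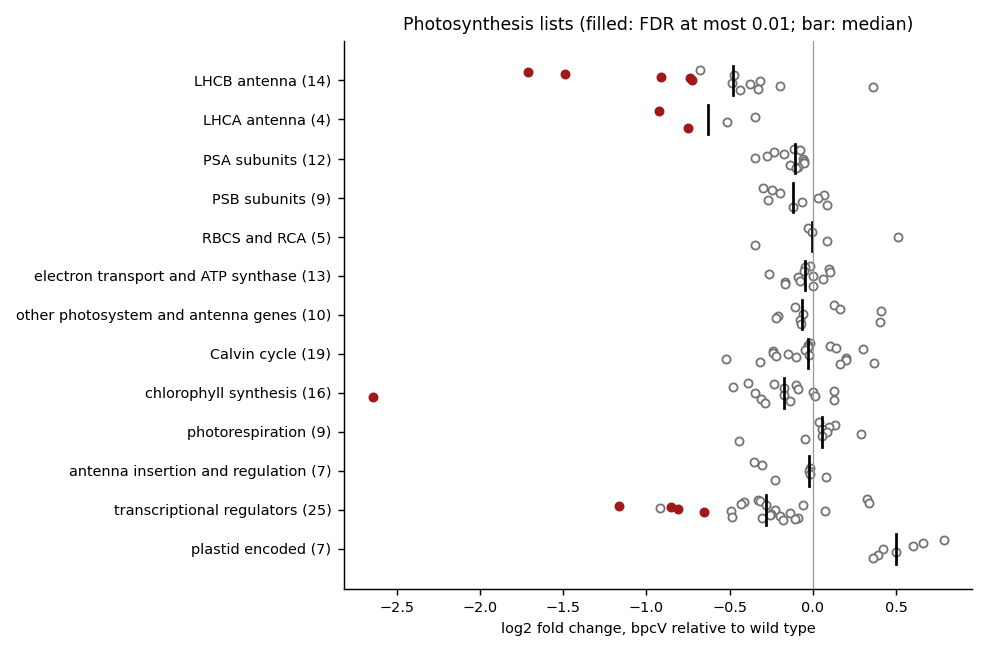
Log2 fold change of *bpcV* relative to wild type for the 5 groups of the 44 genes and for the 8 lists of other pathway genes, with 1 point per gene, filled where the FDR was 0.01 or less, and a bar at the median of each list. Medians are -0.48 for *LHCB* and -0.63 for *LHCA* and lie between -0.28 and 0.06 for the remaining nuclear lists.

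The genes are spread over all 5 chromosomes, with 16 of 44 on chromosome 1. The sources do not state whether the libraries kept the strand of the RNA, and 17 of the 44 overlap another annotated gene in TAIR10.1, so that reads of the neighbour could be counted with them. Of the 7 called genes, *LHCB1.5* and *LHCA4* have such a neighbour and the other 5 do not.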

How the data were processed

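RNA of 3 wild type and 3 *bpcV* samples was sequenced as paired-end, poly-A-selected libraries. Per the methods, bowtie2 placed the reads on TAIR10 transcripts, RSEM turned them into an expected count for each of 32678 genes, and the authors deposited these without normalization or filter. TPM values, scaled by effective gene length and library, were deposited by the authors in the same files. A table of the authors' fold changes and p-values was not used.

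Rounded expected counts that passed filterByExpr (at least 10 counts, and 15 in total) were scaled with TMM factors. Differences between genotypes come from glmQLFTest in edgeR 4.0.16 (R 4.3.3), its quasi-likelihood test, adjusted by Benjamini-Hochberg over 20813 genes at an FDR of 0.01. The study's methods name the same test, adjustment and threshold. This fit called 809 genes, fewer than the study reported, and the cause of that difference was not tested. Intervals are 95%. Counts of the gene copies within a family were also summed before the fit. Positions and sequences are RefSeq's TAIR10.1, in which all 44 genes and 31912 of 32678 identifiers were found. Identity is the share of aligned positions that match in a global alignment (biopython 1.88). The replicates are described as biological, and how many plants each pooled is not given in the sources used here, so p-values measure the spread between these samples.

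The genes named by rule are the 44 members, the other pathway genes past the threshold, 6 activators and the mutated *BPC* genes. Single marker genes are named as well, and further pathway genes were chosen after their values were seen. The members and lists were chosen with earlier results of these data known. Alternatives were DESeq2 1.42.0, the likelihood ratio test, RLE factors, TMM factors without the members, library totals, no filter, at least 10 counts in every library, counts not rounded, limma 3.58.1 on log2(TPM + 1) or log2(TPM + 0.1) for genes averaging 1 TPM or more, and without that filter, a replicate block, an FDR of 0.05, and leaving out each library.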

Additional observations from a re-analysis of the deposited data

How the results depend on the processing

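Of the 44 photosynthesis genes 7 were called, while DESeq2 called 12, the likelihood ratio test 11, limma without a filter 3 and an FDR of 0.05 12, and the fits without 1 library 3 to 11. For the *LHCB* count of 5 the values were 8 with DESeq2, 2 with limma without a filter, 8 at an FDR of 0.05 and 2 to 8 without 1 library. The *LHCA* count of 2 was 1 under each of the 3 limma settings and 1 to 3 without 1 library, and the *LHCA* median ranged from -0.71 to -0.55. For *RBCS* and *RCA* the count of 0 became 1, *RBCS2B*, with DESeq2, the likelihood ratio test and an FDR of 0.05. The 5 other pathway genes became 3 with limma without a filter and 1 to 6 without 1 library, and the 2 summed families 0 to 2. *PSA* and *PSB* counts stayed at 0 in every setting. Over all genes the main count of 809 was 1814 with DESeq2, 2233 with the likelihood ratio test, 532 with a pseudocount of 0.1, 353 with limma without a filter, 2506 at an FDR of 0.05, and 167 to 1249 without 1 library. The cause of these differences was not tested.

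With the replicate number as a block, 3 photosynthesis genes were called, 2 *LHCB* and 1 *LHCA*, with 3 other pathway genes, 0 summed families and 408 of all genes. Same-numbered libraries had correlations of -0.02, -0.01 and 0.18 of their deviations from the group means, so the numbers were not taken to pair the samples.

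Signs changed only for genes that were not called. Without 1 library the log2 fold change ranged from -0.18 to 0.0216 for *PSAD2*, -0.18 to 0.0366 for *PSAH1*, -0.23 to 0.10 for *PSAH2*, -0.11 to 0.0386 for *PSAK*, -0.28 to 0.0043 for *PSAL*, -0.23 to 0.0287 for *PSAN*, -0.0298 to 0.18 for *PSBQ1*, -0.10 to 0.16 for *PSBQ2*, -0.0554 to 0.20 for *PSBX*, -0.33 to 0.0913 for *PSBY*, -0.17 to 0.10 for *RBCS1A* and -0.16 to 0.14 for *RBCS1B*. With library totals *RBCS1B* had 0.0098. The cause of these changes was not tested.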

Other observations

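Some genes around the antenna stood apart in the *bpcV* 1 library, and they were chosen after their values were seen. *CPSRP43*, which carries antenna proteins through the stroma to the thylakoid, had 159, 157 and 157 CPM in wild type and 43.7, 153 and 174 CPM in *bpcV* 1, 2 and 3, so that *bpcV* 1 lay far below wild type, *bpcV* 2 slightly below and *bpcV* 3 above. *CP12-1*, a small regulator of the Calvin cycle, had 368, 370 and 353 CPM against 121, 309 and 331 CPM, and *CP12-3*, its relative, 5.48, 5.57 and 5.54 CPM against 1.66, 5.32 and 6.18 CPM. *LHCB6* was lowest in the same library, at 302 CPM. By contrast *bpcV* 1 was the highest *bpcV* library for 29 of the 44 photosynthesis genes. None of these genes was called in edgeR's quasi-likelihood test, with an FDR of 0.62, 0.321, 0.626 and 0.165 for *CPSRP43*, *CP12-1*, *CP12-3* and *LHCB6*.

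Some chlorophyll genes that were not called are given here, chosen after their values were seen. *CHLH*, a subunit of the magnesium chelatase, had 948, 923 and 805 CPM in wild type and 568, 664 and 690 CPM in *bpcV* without overlap (edgeR log2 fold change -0.48, FDR 0.0307). *HEMA1* had 242, 230 and 223 CPM against 152, 180 and 197 CPM, also without overlap (-0.39, edgeR FDR 0.0508). *PORB*, the close relative of *PORA*, had 372, 430 and 388 CPM against 324, 278 and 357 CPM (-0.31, edgeR FDR 0.119). Of the 16 genes in the list 13 had a log2 fold change below 0 and 3 above, which were *PORC* (0.13), *CHLI2* (0.12) and *DVR* (0.01).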
